A study of Homo sapiens with 6 samples.

Results

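Described here are 1135 RT stops at G in 3′ UTRs of U2OS mRNAs, each at the end of a stretch whose G could be laid out as an RNA G-quadruplex (rG4) with 4 runs of at least 2 G, but which did not meet the usual definition with 4 runs of at least 3 G. They were chosen from the library without dimethyl sulfate (DMS) that is labelled Na+, whose deposited file is named for K+. The label and the file name contradict each other, and which of them gives the cation used for this library was not tested. The number of stops that meet the rule with the libraries exchanged is given in the last section. The RT-stop enrichment (E) is the stop count of a nucleotide over the mean stop count of its transcript. A member stop is a G with an E of at least 10 in this library and at least 2-fold the E in the library labelled K+, on a transcript with at least 1 stop per nucleotide in both. The 45 nt that end at the stop hold 4 runs of 2 or more G with loops of 1 to 9 nt, but not 4 runs of 3 or more G with loops of 1 to 7 nt. Of 3631 strong stops at G that differed 2-fold between these libraries, 2101 lay in 3′ UTRs, and 1135 of those (54.0%) were member stops, 31.3% of the 3631. They fell in 438 genes and formed 598 regions once stops within 30 nt of each other were merged.

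The mRNA, selected for poly(A), came from U2OS, a cell line from a human bone tumour (osteosarcoma). Each of 6 conditions had 1 library, so that no difference between conditions has a replicate check and the intervals given cover counting error, or the spread over stops or regions, only. For the 2 libraries without DMS, the labels give RT in 150 mM Na+ for one and K+ for the other, with the conflict described above, whereas the study's methods name Li+ beside K+ for this step. For the 2 in vitro libraries, mRNA was refolded and treated with DMS in 150 mM K+ or Li+, and RT followed in 150 mM K+. For the 2 libraries from living cells, unstressed cells or cells starved in Hank's balanced salt solution for 2 h were treated with 8% DMS for 5 min before the RNA was taken, again with RT in 150 mM K+. Listed RT stops summed to between 12999691, in unstressed cells, and 35371061, in the library labelled K+, and only nucleotides with at least 3 stops are listed. All libraries come from the same line. The mesenchymal marker vimentin (VIM) had 55.5 stops per nucleotide in the library labelled Na+, SPARC 9.12, COL1A1 3.93 and FN1 1.46, while RUNX2 and LOX had at most 0.0506 and the epithelial markers EPCAM and CDH1 and the leukocyte marker PTPRC had at most 0.0335. Haemoglobin HBB had 0.655, and KRT5, CD3E, ALB and GFAP were not listed. COL1A2 and TWIST1, both on the mesenchymal list, were not listed either.

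In a G-quadruplex, 4 G runs line up so that 1 G of each pairs with its neighbours in a flat G-quartet, and stacked quartets hold a K+ ion between them. Na+ stabilizes the stack less and Li+ hardly at all. Reverse transcriptase reads the RNA from its 3′ side and halts at the 3′ edge of a folded rG4, so that the stop is recorded at or beside the last G run. DMS methylates unfolded G at N7, and a G so modified can no longer take its place in a quartet, whereas a G already in a quartet is protected. A stop that stays strong after DMS treatment is therefore read as an rG4 that was folded when DMS was added. Stacks of 2 quartets are known to be less stable than stacks of 3, and 3′ UTRs carry many sites for RNA-binding proteins and microRNAs.

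The working name of this set, stops with 2-G runs only, did not describe its windows. Of the 1135 windows, 6 (0.529%, 95% Wilson interval 0.242 to 1.15%) held no run of 3 or more G. By contrast 845 (74.4%, interval 71.8 to 76.9%) held at least 3 such runs, 243 (21.4%) held 2 and 41 (3.61%) held 1. The typical window thus had several long runs and lacked another one within reach. For 585 stops (51.5%) the G run went on past the stop, by 1 G in 407 cases and by at least 2 in the others, so that the window ended inside the run. When each window was lengthened to the end of its run, 123 (10.8%, interval 9.16 to 12.8%) held the motif with 4 runs of 3 G. The number was 321 (28.3%) when loops of up to 12 nt were also allowed between these runs. A stop with the full 3-G motif lay within 30 nt of 188 member stops, and 150 of the 438 genes also held such a stop. The stops are called member stops below, and the 655 3′ UTR stops chosen in the same way but with 4 runs of 3 or more G are called 3-G stops.

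Windows of the stops on which the results below turn are shown here, each as the 30 nt that end at the stop, from 5′ to 3′ on the mRNA strand, with runs of 2 or more G in capitals and GRCh37 (hg19) coordinates. All lie in the last exon. The first had the highest E of all member stops. The next 3 had the largest K+ to Li+ ratios in vitro among stops with at least 20 counts in both of these libraries, and CFL1 the smallest. After these come APP, KPNB1 and SEPTIN9, which were among the 6 largest starved to unstressed ratios of the 107 stops listed in both libraries from cells with at least 20 counts together, and AHNAK with the smallest of these. The last is the stop nearest the threshold and 1 of the 41 with a single run of 3 or more G.
SLC6A8, chrX:152960764-152960793, plus strand, exon 13 of 13: cacttttGGGGtctgcctGGGGGaGGaGGG
SET, chr9:131457467-131457496, plus strand, exon 8 of 8: gcaaaGGGtGGGtttgagatgtttGGGtGG
SLC39A1, chr1:153931662-153931691, minus strand, exon 5 of 5: atttttGGGGaGGGaGGGctgtgcataGGG
ERH, chr14:69847223-69847252, minus strand, exon 4 of 4: gtgttGGaagcactGGGGGGGttGGGGtGG
CFL1, chr11:65622690-65622719, minus strand, exon 5 of 5: GGGGctGGGGGGatcccagcaGGGGGaGGG
APP, chr21:27253246-27253275, minus strand, exon 18 of 18: gtaagcacttttacGGGGcGGGtGGGGaGG
KPNB1, chr17:45760643-45760672, plus strand, exon 22 of 22: ctgtgaatgtagaagtGGGGGGGaGGGGGG
SEPTIN9, chr17:75496452-75496481, plus strand, exon 12 of 12: tcacttGGtGGcGGGGtGGGGtGGGGGtGG
AHNAK, chr11:62283692-62283721, minus strand, exon 5 of 5: ccagaGGtGGtGGtagtcaGGGtgtgtGGG
LMNA, chr1:156109742-156109771, plus strand, exon 12 of 12: gtGGaGGaGGaaGGcaagaGGGGGtGGaGG
In APP, ERH and SEPTIN9 the G run continues past the printed end, and the lengthened window of each holds the 3-G motif. KPNB1 shows another case, in which 2 runs of 7 and 6 G can be divided into 4 shorter ones, and 46 of the windows (4.05%) had fewer than 4 separate runs. When 4 separate G runs were required for both motifs, 1033 stops were members.

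How strongly the member stops stalled RT without DMS is what chose them and is given as a description. Their E in the library labelled Na+ had a median of 25.0 (quartiles 15.2 and 52.5) and reached 505, while in the library labelled K+ the median was 1.49. In the latter 741 of the 1135 stops were listed at all, and 22 were strong there too. The highest E was that of SLC6A8, which encodes the creatine transporter, with 658 stops and an E of 505 against 13 stops and an E of 12.8 in the library labelled K+. TUBA3C, an alpha-tubulin, followed with an E of 451 against 12.7, then the septin SEPTIN9 with 445 against 6.73 and the basement membrane proteoglycan AGRN with 428 against 14. The condensin subunit NCAPH had an E of 375 and was not listed in the library labelled K+. The zinc transporter SLC39A1 (362 against 3.92), the transcription factor JUN (362 against 6.67) and the endoplasmic reticulum lectin MLEC (338 against 2.92) completed the first 8. TUBA3C and SLC6A8 have near-identical copies elsewhere in the genome, so that their counts at unique positions are uncertain. Just inside the threshold lay LMNA with an E of 10.01, MRPL41 with 10.02 and TEAD4 with 10.03, and just outside it LSM14B, CSRP1 and TEAD1, all with 9.98. Of the stops that passed on E, FKBP4 and CYP51A1 were left out with 1.98- and 1.93-fold the E in the library labelled K+ and HYOU1 with a value between these. On the inner side of this threshold lay RALY, SZRD1 and PDLIM2 with 2.02-, 2.07- and 2.08-fold.

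**Figure D1:**
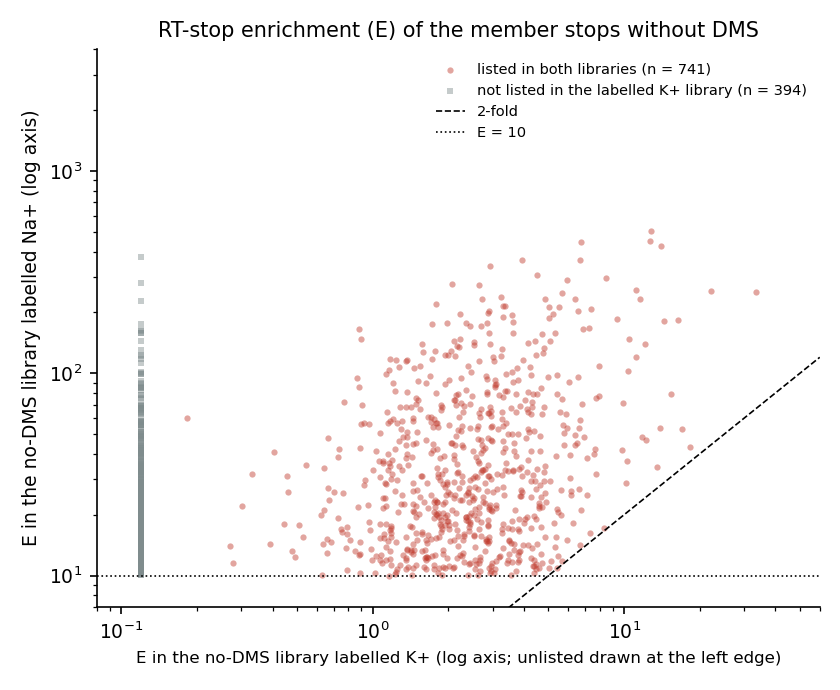
Each point is 1 of the 1135 member stops, with its E in the library without DMS labelled K+ (x axis, logarithmic) and in the one labelled Na+ (y axis, logarithmic); the 394 stops not listed in the library labelled K+ are drawn at the left edge. The dotted and dashed lines are the E of 10 and the 2-fold difference by which the stops were chosen, and most points lie far above the dashed line.

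Member stops came in tight groups. The next member stop lay 1 nt further on for 353 stops (31.1%), 3 to 30 nt further on for 172 (15.2%) and 2 nt further on for 12. Of the 598 regions, 288 had 1 stop, 167 had 2 and 143 had 3 or more, with at most 7. Most genes held a single region (324 of 438), and 61 genes held 5 or more stops. CARHSP1, which encodes a cold shock domain RNA-binding protein, had the most, 12 stops in 4 regions spread from 162 to 2119 nt after the stop codon of a 2221-nt 3′ UTR. FAM168B and LMNB2 had 10 each in 5 regions, and ERGIC1 (4 regions), TMED9 (3 regions) and LMNA (2 regions) had 9 each. In LMNB2, which encodes the lamina protein lamin B2, the strongest stop had 410 stops in the library labelled Na+ and was not listed in the one labelled K+. In vitro it had 11 stops with K+ and 18 with Li+, and 4 in starved cells, while none were listed in unstressed cells. In LMNA, for lamins A and C, the strongest of the 9 had 321 stops in the library labelled Na+, 8 in that labelled K+, 6 with K+ and 8 with Li+ in vitro, 3 in unstressed cells and 4 in starved ones. Counts behind most of these stops were thus too small in the DMS libraries for a ratio.

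The windows of the member stops were compared with 3119 other 3′ UTR windows on 337 of the same transcripts. These hold the same motif, end at the last G of a run and have an E under 2 in both libraries without DMS, and they are called non-stalling windows. Because they all end at the last G of a run, the 550 member stops at the last G of a run are given where this matters. At least 3 runs of 3 or more G were found in 76.7% (Wilson interval 73.0 to 80.1%) of these 550 windows and in 23.9% (22.4 to 25.4%) of the non-stalling ones, whereas no such run was found in 0.909% and 11.3%. The median number of G runs was 6 against 5. Loops were shorter in member windows, with a median total of 6 nt (quartiles 4 and 9) over the shortest match to the motif, against 10 nt (7 and 14). All 3 loops were 1 nt long in 149 of the 1135 windows (13.1%, interval 11.3 to 15.2%) against 2.37% (1.89 to 2.97%). A window with no 1-nt loop at all was found for 14.5% of member stops and 41.1% of non-stalling windows. C made up a median of 13.3% of member windows and 22.2% of non-stalling ones, and G 46.7% and 40%. The base after the stop was A in 48.0% and C in 23.1% (interval 19.8 to 26.8%) of the 550 stops, against A in 31% and C in 45.6% (43.8 to 47.3%) of non-stalling windows. The intervals for C did not overlap. The windows lie on shared transcripts and are not independent samples.

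Short motifs were counted as letters in the 45-nt windows of the mRNA strand, since the RNA is single-stranded. GGAGG was found in 56.7% of member windows, 34.2% of non-stalling windows and 8.49% of all 705727 windows at every position of the 3′ UTRs that hold a member. GGTGG was found in 57.0%, 28.9% and 7.68%, and GGCGG in 11.3%, 9.97% and 1.65%. These motifs can overlap in 1 window and are part of what the G-run rule asks for, and GGCGG hardly differed between the first 2 sets. Of all those windows 11.1% met the rule's sequence condition. Predicted folding differed as well. The minimum free energy of the window at 37 °C without a quadruplex term had a median of -9.1 kcal/mol for member stops and -12.4 for non-stalling windows, that is, less stable stems and loops in the former. With the quadruplex term of RNAfold, which considers G runs of 2 or more, the predicted structure held a quadruplex in 42.2% (interval 39.4 to 45.1%) of member windows, 8.18% (7.26 to 9.19%) of non-stalling windows and 91.0% of the 3-G windows.

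**Figure D2:**
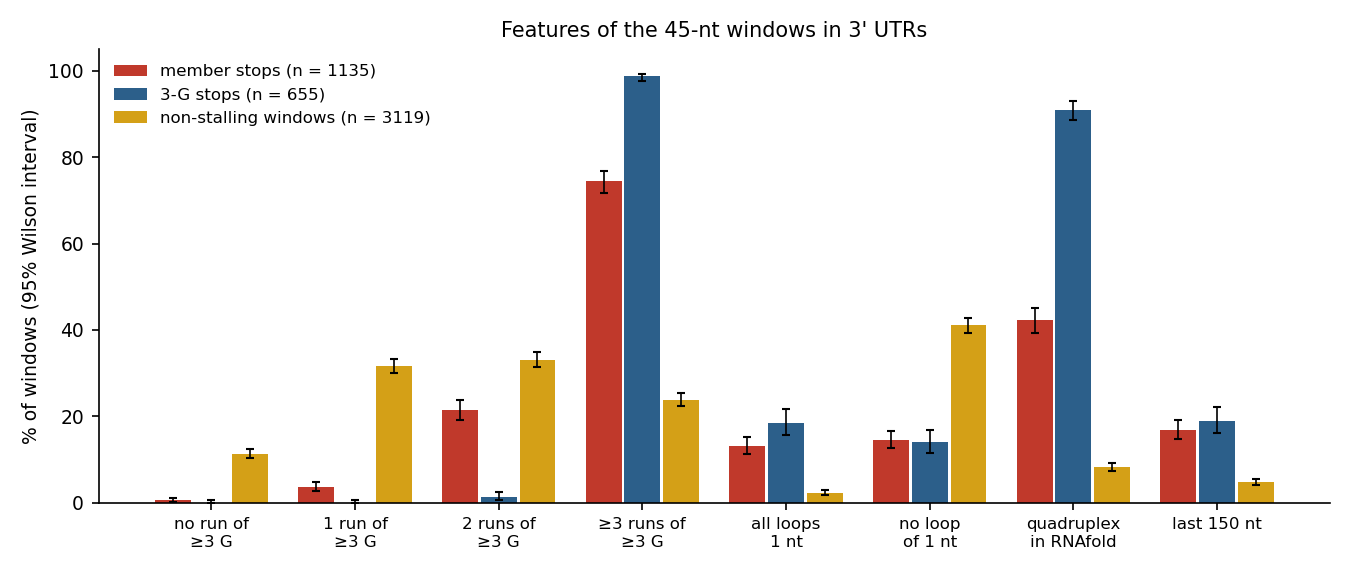
Bars give the percentage of 45-nt windows with each feature for 1135 member stops (red), 655 3-G stops (blue) and 3119 non-stalling windows (yellow), with 95% Wilson intervals as error bars. Member windows sit between the other sets for predicted quadruplexes (42.2%) and have more long G runs, more 1-nt loops and a more frequent place in the last 150 nt than non-stalling windows.

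Along the 3′ UTR the member stops were spread widely, at a median of 466 nt (quartiles 204 and 912) after the stop codon and a median relative position of 45.0%. Within 150 nt of the transcript end lay 16.8% (interval 14.8 to 19.1%) of member stops and 4.81% (4.11 to 5.62%) of non-stalling windows. The share was 18.9% for 3-G stops and 15.3% (13.0 to 18.0%) for strong 3′ UTR stops at G that were not cation-dependent, so that it was not particular to the members. The 3′ UTRs differed in length between these sets, with a median of 1341 nt around member stops and 1987 nt around non-stalling windows, and the part of this difference in the share near the end was not tested. Read depth along the transcripts was not compared.

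The G runs from all member regions were aligned at the strongest stop to see how stops were distributed in each library, over the regions with at least 20 stops there. In the library labelled Na+, by which that stop was chosen, it took 31.9% of the stops of the surrounding 71 nt on average and the next nucleotide 12.3%. In the library labelled K+ it took 3.08% ± 0.139 (SEM over 564 regions). The DMS libraries were not used in the choice. There the strongest stop took 6.78% ± 0.353 (536 regions) in vitro in K+, 5.42% ± 0.255 (563 regions) in Li+, 2.04% ± 0.138 (492 regions) in unstressed cells and 7.0% ± 0.357 (396 regions) in starved cells. The nucleotide 3′ of it took 7.72% with K+, 5.16% with Li+, 2.95% in cells without stress and 6.97% after starvation, so that with DMS in K+ and in unstressed cells the mean share at this nucleotide was higher than at the stop itself. The regions differed between the libraries, and these shares are of stops at all bases, of which G took 9.02% in unstressed and 16.2% in starved cells over all listed stops. The part of this in the difference was not tested.

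**Figure D3:**
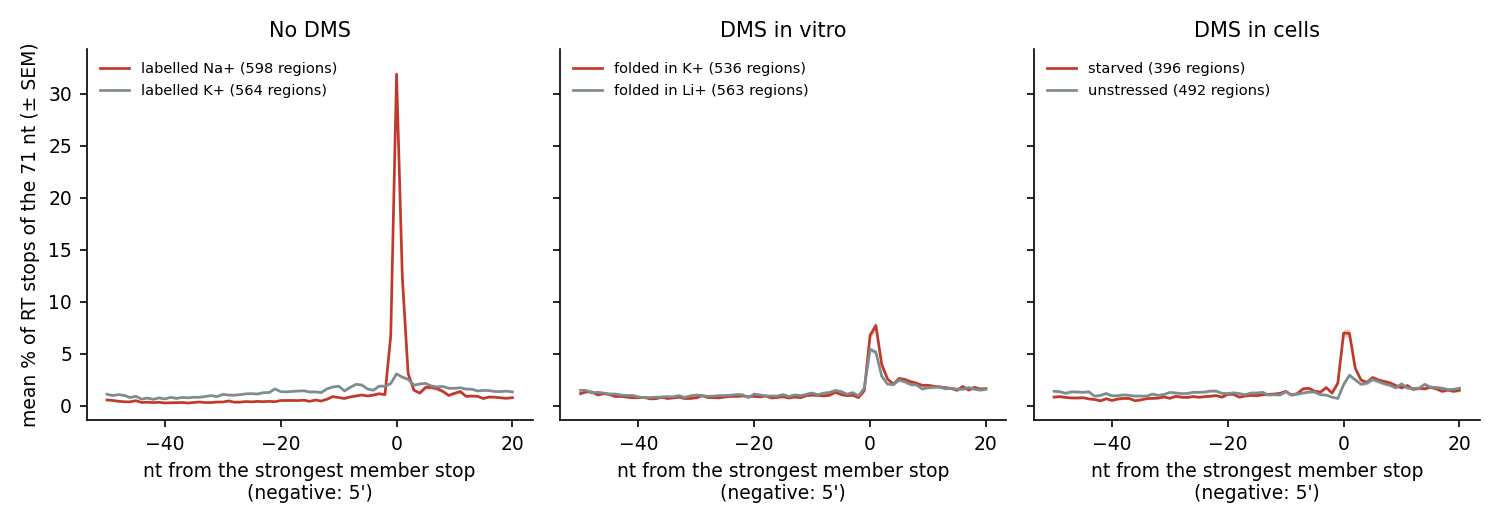
Mean percentage of the RT stops in a 71-nt stretch at each distance from the strongest member stop of a region (x axis, nt, negative is 5′), with the SEM over regions as bands, for the libraries without DMS, with DMS in vitro and with DMS in cells. The stop stands at 31.9% in the library labelled Na+, by which it was chosen, and at 7.0% in starved against 2.04% in unstressed cells, over different regions (396 and 492) and without correction for the larger share of stops at G in starved cells.

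The in vitro libraries ask whether the stops depended on K+ when RNA was folded before DMS was added. On the whole they were stronger in K+ than in Li+, though modestly. Of the 1135 stops, 528 had a higher E in K+, 370 a higher E in Li+ and 237 were listed in neither library, and the E summed over all stops was 1.39-fold higher in K+. A ratio was calculated for the 480 stops with at least 10 counts in both libraries together, and its median was 0.48 on the log2 scale (quartiles -0.07 and 0.94, 1 count added to each). E was at least 2-fold higher in K+ for 101 of the 480 (21%, Wilson interval 17.6 to 24.9%), and at least 2-fold higher in Li+ for 8 (1.67%). Over all 1275207 nucleotides with the same counts and coverage, 9.7% were at least 2-fold higher in K+ and 3.97% in Li+, with a median of 0.13, and at G 9.29% and 3.8%. For all strong stops at G, among which the member stops are counted, 18.1% were 2-fold higher in K+ and 2.58% in Li+. The share of 3-G stops was 32.2% (interval 28.0 to 36.8%, n = 428, median 0.60). For 798 strong stops at G in 3′ UTRs that were not 2-fold stronger in the library labelled Na+, it was 8.69% (6.51 to 11.5%, n = 495, median 0.13). The interval of the 480 member stops overlapped with neither of these. It did overlap with that of all strong stops at G (16.7 to 19.6%), to which the members' share was near. Neighbouring stops are not independent, however. With only the strongest stop of each region, the share was 22.8% (18.4 to 28.0%, n = 289). That interval overlapped with the one of the 3-G stops, which were not merged into regions.

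Stops of genes with the largest K+ to Li+ ratio were named among 57 stops in 41 genes, which had 20 counts or more both in K+ and in Li+. JUN, STUB1 and CAPRIN1, with ratios of 6.90, 5.56 and 4.99, had fewer in Li+ and were not ranked. Nor were 3 stops with the highest log2 values of all, those of RAB35 and FUBP3, each with 10 counts in K+ and none listed in Li+, and of QSOX1 with 28 and 4. SET encodes a histone chaperone that inhibits protein phosphatase 2A, and its stop had 355 counts in K+ and 77 in Li+. Its E was 29.2 in K+ and 4.65 in Li+, a ratio of 6.28 (95% exact interval 4.90 to 8.15). In the other libraries its E was 189 without DMS in the library labelled Na+, 5.04 in that labelled K+, 3.37 in unstressed and 9.39 in starved cells. Its interval lay above those of the other ranked stops except SLC39A1, with which it overlapped, and the intervals of the unranked JUN (2.96 to 18.7), STUB1 (2.72 to 12.5) and CAPRIN1 (1.96 to 15.0) included its value.

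For SLC39A1 the E was 36.8 in K+ and 11.9 in Li+ (60 and 27 counts), a ratio of 3.10 (1.94 to 5.09). ERH, a small conserved nuclear protein, had an E of 17.2 in K+ and 5.78 in Li+ (306 and 132 counts), a ratio of 2.98 (2.42 to 3.69). The ratios of IPO7, a nuclear import receptor, of TUBA3C and of RCC1, the nucleotide exchange factor of the GTPase Ran, were 2.49 (1.40 to 4.53), 2.45 (1.70 to 3.57) and 2.40 (1.47 to 3.98). At the other end, the actin-severing protein CFL1 had an E of 1.07 in K+ and 1.68 in Li+, a ratio of 0.64 (0.386 to 1.02). The remaining low ratios were those of DHRS2 (0.65), the actin-binding TAGLN2 (0.79), the 14-3-3 protein YWHAE (0.80), PTMS (0.89) and the endoplasmic reticulum chaperone CALR (0.90), and each of these 6 intervals included 1. Without DMS, the E of these 12 stops in the library labelled Na+ lay between 19.6 for TAGLN2 and 451 for TUBA3C.

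**Figure D4:**
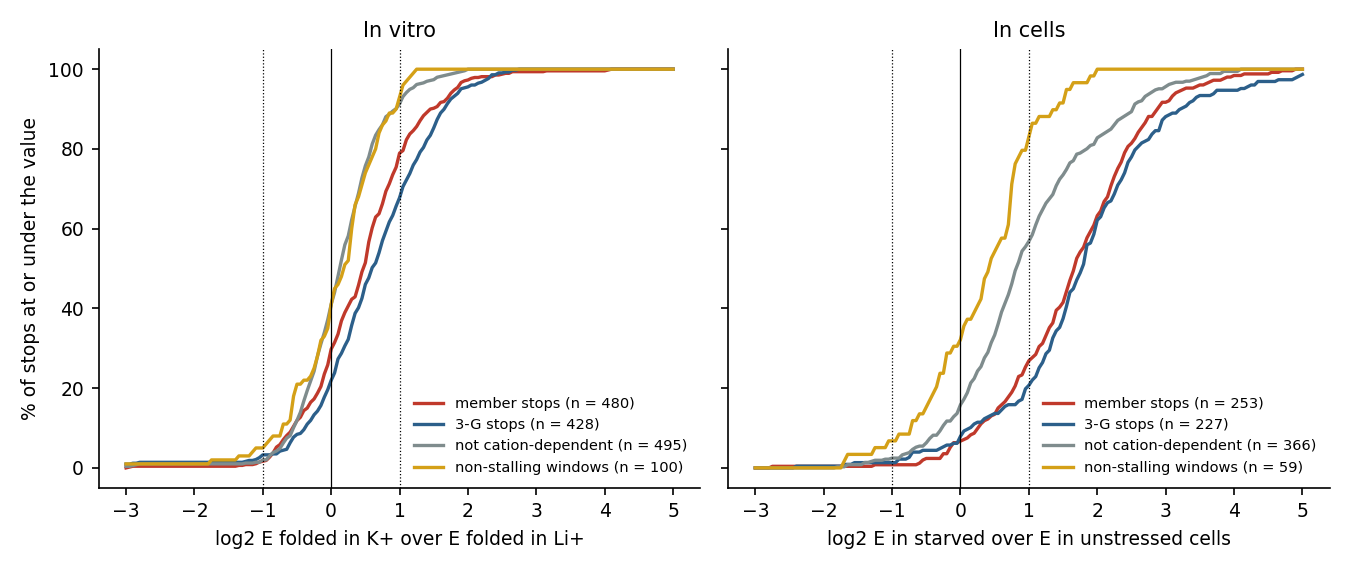
Cumulative percentage of stops (y axis) at or under each log2 ratio of E (x axis), folded in K+ over Li+ on the left and in starved over unstressed cells on the right, for stops with at least 10 counts in the pair. Dotted lines mark 2-fold. Member stops (red) lie between the 3-G stops (blue) and the stops that were not cation-dependent (grey) in vitro, and near the 3-G stops in cells; non-stalling windows are in yellow.

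The starved and unstressed libraries compare the stops in cells. Most member stops with enough counts had a higher E in starved cells, and this was so for stops at G in general to a smaller extent. Of 808 member stops on transcripts covered in both libraries, 474 had a higher E in starved cells, 86 a higher E in unstressed cells and 248 were listed in neither, with the summed E 3.44-fold higher in starved cells. Of the 253 stops with at least 10 counts, 185 (73.1%, Wilson interval 67.3 to 78.2%) were at least 2-fold higher in starved and 2 in unstressed cells, and the median was 1.65 on the log2 scale (quartiles 0.92 and 2.29). Over all 665585 nucleotides with the same counts and coverage, 17.4% were at least 2-fold higher in starved cells and 19.3% in unstressed cells. At G these shares were 37.1% and 4.82%, with a median of 0.62, and for all strong stops at G, which include the member stops, they were 50.9% and 2.1%. Of 3-G stops, 79.3% (interval 73.6 to 84.1%, n = 227, median 1.79) were 2-fold higher in starved cells, an interval that overlapped with that of the member stops. The share was 43.2% (38.2 to 48.3%, n = 366) of the stops that were not cation-dependent, 47.3% (36.3 to 58.5%, n = 74) of those on the same transcripts as member stops, and 16.9% (9.48 to 28.5%, n = 59) of non-stalling windows.

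These values rest on E relative to all nucleotides of a transcript, and the base composition of the stops moved between the libraries. A and C, which DMS methylates where they are unpaired, took 88.4% of listed stops in unstressed and 78.2% in starved cells, and G took 9.02% and 16.2%. The part of this in the result was not tested. With E taken relative to stops at U and G, the median log2 ratio of the member stops was 0.76 and the share 37.9%, and with E scaled to strong stops at G that are not cation-dependent 0.49 and 31.6%. The direction of the median was the same and the size was less than that given above. Relative to U and G, 14% of all nucleotides at G and 5.29% of all nucleotides were at least 2-fold higher in starved cells, and with the scaled E 12.5% and 5.14%. The stops that were not cation-dependent had a share of 15.6% (12.2 to 19.6%) relative to U and G, and the interval of the member stops, 32.2 to 44.1%, lay above it. The scaled E moves all stops by the same amount, so that it changes the shares (15.3% for these stops) and not the order of the sets. For 3-G stops the shares were 38.3% and 33.5%. The transcripts themselves also moved. The log2 ratio of the share of listed stops, starved over unstressed, had a median of -1.36 on 329 transcripts with a member (quartiles -2.08 and -0.43), against a median of 0.13 for 1993 other transcripts past the same minimum. On transcripts with at least 1 stop per nucleotide in both libraries, the median log2 ratio of 128 member stops was 1.66. Fewer molecules of an mRNA and fewer stops per molecule cannot be told apart. Since E divides by listed counts only, the listing minimum of 3 stops also enters the mean of each transcript. The part of this in the ratio was not tested.

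Stops with the largest starved to unstressed ratio were named among 107 stops in 70 genes with at least 20 counts in both libraries together and listed in each, ranked after 1 count was added to both. APP encodes the amyloid precursor protein, and its 3′ UTR is known for an rG4. Its stop had 8 counts in unstressed and 46 in starved cells. The E was 3.61 in unstressed and 46.5 in starved cells, 6.76 with K+ and 4.76 with Li+ in vitro, and 127 and 1.58 without DMS in the libraries labelled Na+ and K+. The starved to unstressed ratio was 12.9 (exact interval 6.03 to 31.6), while the K+ to Li+ ratio of 1.42 had an interval that included 1 (0.797 to 2.53). In starved cells the E of this stop was thus higher than in either in vitro library.

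KPNB1 encodes importin beta-1, the main carrier of nuclear import. Its E was 2.50 in unstressed and 26.9 in starved cells (6 and 100 counts), a ratio of 10.8 (4.78 to 30.1), and in vitro 8.22 with K+ and 5.91 with Li+. SLC39A1 followed with an E of 3.02 and 31 (4 and 16 counts), a ratio of 10.3 (3.31 to 42.2). SEPTIN9 had an E of 17.1 in unstressed and 144 in starved cells (16 and 39 counts), a ratio of 8.47 (4.62 to 16.2). The ratio of PES1, a ribosome assembly factor, was 9.31 (3.36 to 29.6) and that of SDC4, a cell surface proteoglycan, 9.61 (2.85 to 50.5). All 6 intervals overlapped, so that these stops cannot be ordered.

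The smallest of these ratios was that of AHNAK, a very large scaffold protein, with an E of 62.0 in unstressed and 39.6 in starved cells (22 and 10 counts). Its ratio was 0.64 (0.27 to 1.41), and its E in vitro was 20.5 in K+ and 10.2 in Li+, so that the stop was stronger in unstressed cells than in either. The stops of NUTF2 (0.81), SUPT4H1 (0.91), ACTR3 (0.92), MRPS21 (0.92) and ZNF146 (1.05) came next, and all 6 intervals included 1. Scaling E to the strong stops at G without cation dependence divides each ratio in cells by 2.24. The ratio of APP was then 5.77 (2.70 to 14.1) and that of KPNB1 4.82 (2.14 to 13.5), and the intervals of the 6 largest still lay above 1. The ratio of AHNAK was 0.286 (0.121 to 0.628), and the intervals of NUTF2 and SUPT4H1 also lay below 1 on this scale. On it the 3′ UTR stops that were not cation-dependent had a median log2 ratio of -0.34, and all nucleotides at G one of -0.54. A ratio of 1 is thus not the usual level of stops at G on this scale. HIRA, LMNB1, CDKN1B and ACTB, which were also looked up, held no member stop. APH1A, a gamma-secretase subunit, held 4, of which the strongest had an E of 68.3 without DMS in the library labelled Na+ and 1.28 in that labelled K+, with 4 counts in unstressed and 7 in starved cells and a ratio whose interval included 1 (3.41, interval 0.867 to 15.9).

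**Figure D5:**
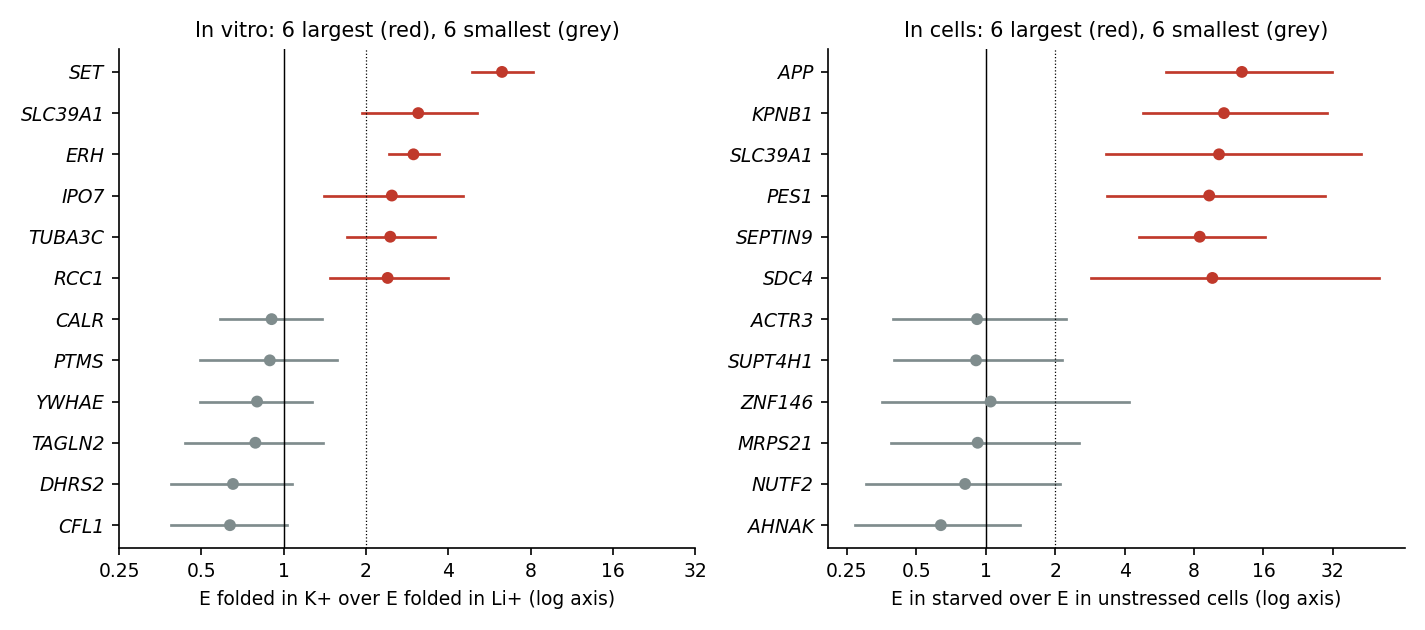
Ratio of E (x axis, logarithmic) with 95% exact intervals, which cover counting error only, for the member stops with the 6 largest (red) and 6 smallest (grey) ratios in vitro and in cells, 1 stop per gene. The solid line is equal E and the dotted line 2-fold; the interval of SET lies above 4.9, and all grey intervals include 1.

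The in vivo folding score places E in cells on a scale from 0, the E in Li+, to 1, the E in K+, and was calculated for the 110 member stops in 80 genes that were listed in both in vitro libraries and had at least 2-fold the E in K+, on transcripts covered in the 4 DMS libraries. No minimum of 10 counts was set here and no count was added, so that some scores rest on 3 or 4 counts in vitro. Its median was -0.23 in unstressed cells (95% order-statistic interval -0.30 to 0.0033) and 1.07 in starved cells (0.62 to 1.41). The score was higher by at least 0.25 in starved cells for 82 of the 110 (74.5%, Wilson interval 65.7 to 81.8%) and lower by as much for 9. This share was like that of the other stops, with 74.6% (66.0 to 81.6%) for 118 3-G stops and 69.8% (54.9 to 81.4%) for 43 stops that were not cation-dependent. Of the non-stalling windows, 7 of 20 were higher (35%, 18.1 to 56.7%). Counts were small, with a median of 3.5 stops in unstressed and 7 in starved cells, and 42 of the stops were not listed in unstressed cells and 16 in starved cells and entered with an E of 0. The starved median depended on the processing. It was 1.45 for the 64 stops listed in both libraries from cells (0.13 in unstressed cells), 0.62 with the scaled E, 0.60 relative to U and G, 0.57 with the deposited ratio, 0.46 on transcripts with at least 1 stop per nucleotide and 0.43 with the libraries thinned to equal totals. For the 3-G stops the medians were -0.27 (-0.40 to -0.17) and 0.69 (0.44 to 0.91), and for the stops that were not cation-dependent -0.03 (-0.47 to 0.44) and 0.81 (0.54 to 1.22). The starved intervals of the 3 sets overlapped. Among the stops with the largest K+ to Li+ ratio, SET went from -0.05 to 0.19, ERH from -0.38 to 0.45 and SLC39A1 from -0.35 to 0.77. MLEC (-0.25 to 1.48), RCC1 (-0.42 to 1.51) and SDC4 (-0.62 to 2.66) had scores over 1 in starved cells, as did IPO7 (-0.67 to 2.38). With the scaled E the starved score was 0.0949 for SET, 0.204 for ERH and 0.469 for SLC39A1. It was 0.977 for MLEC, 1.01 for RCC1, 1.90 for SDC4 and 1.73 for IPO7. The score of AHNAK was above 1 in both libraries from cells and went down, from 5.02 to 2.85.

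Across member stops the readouts in vitro and in cells were hardly related. Spearman's rho between the log2 K+ to Li+ and the log2 starved to unstressed ratio was 0.05 over 226 stops, which share transcripts and have a median of 18 counts in each pair of libraries. The E without DMS had a rho of 0.21 with either ratio (480 and 253 stops). For stops with an E of 10 to 20, 15.1% (Wilson interval 9.51 to 23.1%) were 2-fold higher in K+ than Li+ and 60.3% (47.5 to 71.9%) 2-fold higher in starved cells. For those with an E of 20 to 50 the shares were 20.8% (15.1 to 28.0%) and 79.7% (69.6 to 87.1%), and with an E of at least 50 they were 24% (18.9 to 30%) and 75% (66.4 to 82%). The lowest and highest of these groups had overlapping intervals in vitro and in cells, and E is the value by which the stops were chosen.

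Most features of the window showed overlapping intervals in these readouts. The 123 stops whose lengthened window held the 3-G motif were 2-fold higher in K+ in 26.3% (interval 16.6 to 39.0%, n = 57) and the other 1012 in 20.3% (16.8 to 24.4%, n = 423). With loops of up to 12 nt, the shares were 29.7% (22.8 to 37.5%, n = 145) for stops with the 3-G motif and 17.3% (13.6 to 21.7%, n = 335) for those without, and these intervals did not overlap. In cells they were 74.4% (64 to 82.6%) and 72.5% (65.4 to 78.7%). Both ways of lengthening the window were added after the data were seen, and neighbouring stops are not independent. The 6 stops with no run of 3 or more G could not be compared, since 1 of them had 10 counts in vitro and none in cells. Of the 41 stops with 1 such run, 11 had a higher E in K+ and 15 in Li+, with a ratio of summed E of 0.796, and the 7 measured had a median log2 K+ to Li+ ratio of 0.20. Those with 2 of 0.51 (91 of 243) and those with 3 or more of 0.47 (381 of 845). By total loop length the share 2-fold higher in K+ was 18.9% for 3 to 5 nt, 22.2% for 6 to 9 nt and 23.7% for 10 to 14 nt, with overlapping intervals. By RNAfold it was 23.0% with and 19.3% without a predicted quadruplex, also overlapping. In cells the share 2-fold higher in starved was lowest where the base after the stop was C, 47.8% (29.2 to 67.0%, n = 23), and highest where it was A, 80.7% (68.7 to 88.9%, n = 57), and these intervals did not overlap. The median log2 ratios were 0.85 and 1.98.

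Member stops were found in 438 of the 2534 genes (17.3%) with a matched coding transcript past the minimum. Of the genes with a 3′ UTR quadruplex in the literature, 2 of the 11 listed were measured and both held one, APP and FXR1. The window of FXR1, which encodes a relative of the fragile X protein, is shown as the stop had 6 counts in both in vitro libraries, 15 in starved cells and was not listed in unstressed cells or the library labelled K+.
FXR1, chr3:180694359-180694388, plus strand, exon 17 of 17: aatatGGcagagatGGGGGGtGGtGGGtGG
Of 47 RNA-binding protein genes measured, 9 (19.1%) held a member stop, close to the share of all genes. They were HNRNPK, HNRNPL, TAF15, DDX17, FXR1, CAPRIN1, LARP1, KHSRP and ZFP36L1. CAPRIN1, a stress granule protein, had 22 counts in K+ and 6 in Li+, a ratio of 4.99 (1.96 to 15.0), and 3 counts in unstressed and 32 in starved cells, a ratio of 6.01 (1.88 to 30.7). HNRNPK, a splicing and translation regulator, had ratios of 2.11 (1.37 to 3.27) and 3.79 (1.94 to 8.07). For HNRNPL the K+ to Li+ ratio of 1.31 included 1 in its interval (0.875 to 1.96), while its ratio in cells was 4.93 (2.24 to 11.7). KHSRP had ratios of 1.05 (0.548 to 1.97) and 1.77 (0.726 to 4.30), and TAF15 of 0.96 (0.248 to 3.34) and 1.78 (0.486 to 7.11), and these 4 intervals included 1. With the scaled E the intervals in cells of CAPRIN1 (0.841 to 13.7) and HNRNPK (0.868 to 3.61) also included 1. The stops of DDX17, LARP1 and ZFP36L1 had too few counts in cells for a ratio.

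Of 15 genes for ubiquitin ligases and their subunits, 5 held a member stop (RNF10, RNF167, STUB1, DDB1 and ARIH2), and of 7 nuclear envelope genes LMNA and LMNB2 did. STUB1, the chaperone-bound ligase also called CHIP, had 38 counts in K+ and 10 in Li+ and a ratio of 5.56 (2.72 to 12.5). In cells it had 7 counts in unstressed and 13 in starved cells, with an E of 5.26 and 37.5 and a ratio of 7.13 (2.65 to 21.1). Its window holds runs of at most 3 G.
STUB1, chr16:732669-732698, plus strand, exon 7 of 7: GGctGGaaaagcaGGtgaGGGtGGGctGGG
For DDB1 the ratios were 1.05 (0.301 to 3.46) in vitro and 1.73 (0.456 to 5.75) in cells, and both intervals included 1. The stop of ARIH2 had 170 counts in the library labelled Na+ and an E of 145, with 3 counts in K+, 8 in Li+ and none listed in either library from cells. These lists are small, and their counts are a description of which genes were reached.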

How the data were processed

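From 6 libraries of U2OS mRNA, 1 per condition, the authors removed duplicate reads, aligned the rest to hg19 transcripts with Bowtie, keeping exact and unique matches, and deposited a count of RT stops for every nucleotide that had 3 or more. They also deposited a ratio of each count to the transcript's mean at that base, as the values show. E was recalculated here as count × length over the sum of listed counts. Unlisted nucleotides were counted as 0. Of 2723 transcripts past the minimum, 2589 (95.1%) could be placed, from the bases the files list, on GENCODE release 44 (GRCh37), which gave 3′ UTRs and sequences. Of the 3631 cation-dependent stops at G, 139 lay on unmatched transcripts and 106 had a window that did not match, and these were left out.

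In the DMS libraries, transcripts had at least 0.25 stops per nucleotide, stops at least 10 counts in the pair, and 1 count was added, except for the folding score, which used E as it stood. Called means 2-fold. Shares have 95% Wilson intervals, ratios exact (Clopper-Pearson) intervals and medians order-statistic intervals, all for counting error or spread over stops only. No p-value was calculated, since each condition has 1 library. Members and gene lists were chosen with earlier results of these data known. Named were the genes APP, HIRA, APH1A, CDKN1B, LMNB1 and ACTB, the 8 highest E, the 6 largest and 6 smallest ratios in vitro (at least 20 counts in each library) and in cells (at least 20 together, listed in both), 5 genes with most stops (TMED9, tied with the last, was named after its count was seen), the 3 stops on each side of a threshold and members of the lists. RAB35, FUBP3 and QSOX1 were named after their values were seen. In total 17 alternatives were set in advance of the files and 3 added after seeing the data. The calculation was tested on simulated data. Folding used RNAfold 2.7.2, statistics scipy 1.17.1, figures matplotlib 3.10.9 and tables pandas 2.3.3 with numpy 2.4.6, all under Python 3.11.15.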

Additional observations from a re-analysis of the deposited data

How the results depend on the processing

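No paired analysis was possible because each condition has 1 library, and for the same reason no replicate could be left out. Of 1135 member stops, 692 were left with an E of at least 20, 603 with a transcript minimum of 2 and 598 as merged regions. By the opposite assignment, strong in the library labelled K+, 16 stops met the rule, none of them a member stop. For these 16 the median log2 K+ to Li+ ratio was 0.030 with 33.3% at least 2-fold (3 stops), the starved to unstressed one 1.05 with 50.0% (2 stops), and the starved score 0.16 (1 stop), too few to read. With the deposited ratio as E, the in vitro median and share were 0.35 and 16.8%, those in cells 0.84 and 42.7%, and the starved score 0.57. Relative to U and G they were 0.58 and 28.5%, and 0.76 and 37.9%, with scores of 0.016 unstressed and 0.60 starved. Scaled to stops at G that are not cation-dependent, the medians were 0.38 in vitro and 0.49 in cells, with 31.6% 2-fold in cells and a starved score of 0.62. Thinned to 12999691 stops, they were 0.38 and 1.88, with 81.0% in cells and a starved score of 0.43. With 20 counts in the pair, the in vitro median was 0.55. Without windows that hold the 3-G motif with loops of up to 12 nt, 17.3% were 2-fold in vitro. With 1 stop per nucleotide the scores were -0.31 and 0.46, for stops listed in both 0.13 and 1.45, and with unlisted stops counted as 2 the unstressed score was 0.11. The cause of these shifts was not tested beyond what each setting changes. Of the 1135 stops, 253 had the coverage and the 10 counts needed for a ratio in cells, against 480 in vitro.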
